A study of Mus musculus with 4 samples.

Results

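The receptors of the epidermal growth factor (EGF) family and the ligands that bind them were examined in bulk RNA sequencing of mouse lungs carrying 4T1 metastases. The 10 genes were set by name, as members of the family, out of 56748 genes listed, with no threshold on their values. They comprise 3 receptors, Egfr, Erbb2 and Erbb3, and 7 ligands, Areg, Ereg, Hbegf, Tgfa, Btc, Epgn and Nrg1. The 4T1 line is a mouse mammary carcinoma line used as a model of triple-negative breast cancer, a class defined in part by the lack of HER2 (the product of Erbb2). Per the study's methods, female BALB/cJ mice, 7 weeks of age, received 2000000 luciferase-expressing 4T1-FLuc cells by tail vein, so that the growths in the lung were seeded from the blood and not from a mammary tumor. The 2 saline samples came from mice given vehicle (saline in the study, PBS control in the labels). The 2 ADC/cmLumiOpto samples came from mice given both an antibody-drug conjugate against CD276 that carries mertansine (DM1), a microtubule poison, and cmLumiOpto, a gene therapy vector designed to depolarize mitochondria and driven by a cfos promoter. The study's methods also list groups given either agent alone. No sample of those groups was analysed here, so the effects of the 2 agents cannot be told apart. The labels give 16 mg/kg for the conjugate and write Olap beside cmLumi, whereas the methods give 8 mg/kg with 2 mg/kg of the light-producing substrate ViviRen. The methods also give 4 samples per group, of which 2 per group were analysed here. The series design text gives 3 weeks of treatment, for both groups.

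In this family a ligand made as a membrane-bound precursor is cut free by a metalloprotease and binds a receptor, which then pairs with a second receptor and turns on RAS/MAP kinase and PI3 kinase signaling. Erbb2 has no known ligand of its own and serves as the preferred partner, while Erbb3 has a weak kinase and signals through its partner. In the lung the family is known for growth and repair of the airway and alveolar epithelium, and in mammary carcinoma for growth and spread of tumor cells.

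Reads assigned to genes summed to between 15263375 and 19675436 per sample, and 15320 genes passed the filter on low counts. No gene of the 15320 (0%) reached an adjusted p under 0.05 in edgeR's quasi-likelihood test, where the smallest adjusted p was 0.116, so every list below is read against how many of all genes did the same. Without adjustment, p was under 0.05 and the level lower after treatment for 12.2% of all tested genes, and higher for 11%. By edgeR's exact test 564 genes were lower at an adjusted p under 0.05 (3.68%) and 606 higher, and by DESeq2 774 were lower (5.05%) and 579 higher. The labels name harvested tumor cells, but lung cells were present in every sample, and the surfactant gene Sftpc, the defining transcript of alveolar type 2 cells, stood at 1017 and 174 CPM (counts per 1000000, scaled by TMM) in the saline samples and at 4321 and 3426 CPM after treatment. In such bulk samples fewer cells of a type and less RNA per cell cannot be told apart. The methods call the samples biological, and nothing in the labels ties each to an animal, so p-values measure only the spread between these samples, which may be technical.

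Of the 10 genes, Hbegf, Tgfa and Areg among the ligands and Erbb2 among the receptors were the abundant ones. Levels between genes are compared as CPM divided by the listed gene length in kilobases (CPM per kilobase). The means in the saline samples, with SD (n = 2), were 23.2 ± 0.0926 CPM per kilobase for Hbegf, 20.5 ± 2.68 for Tgfa, 16.6 ± 8.20 for Areg and 13.3 ± 4.90 for Erbb2. These 4 adjacent levels did not differ beyond their spread, apart from Hbegf over Tgfa, whose samples did not overlap. A wide gap followed. Egfr stood at 2.31 ± 0.204 and Erbb3 at 1.87 ± 0.983 CPM per kilobase, which overlapped, and Nrg1 at 0.653 ± 0.0841 and Ereg at 0.575 ± 0.0639, which overlapped as well. Epgn (0.198 ± 0.0359) and Btc (0.195 ± 0.0611) were the lowest. After treatment the order was Areg at 17.2 ± 11.1, Hbegf at 13.0 ± 0.252, Erbb2 at 12.9 ± 0.722 and Tgfa at 11.1 ± 2.70 CPM per kilobase, with overlapping samples for each neighboring pair. Erbb3, at 3.37 ± 0.240 CPM per kilobase, then lay above Egfr, at 1.48 ± 0.189, in both treated samples. At the low end Nrg1 (0.516 ± 0.0293) lay above Btc (0.323 ± 0.0753) and Ereg (0.283 ± 0.0508), which overlapped, and Epgn was the lowest, at 0.157 and 0.243 CPM per kilobase in the 2 samples.

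**Figure D1:**
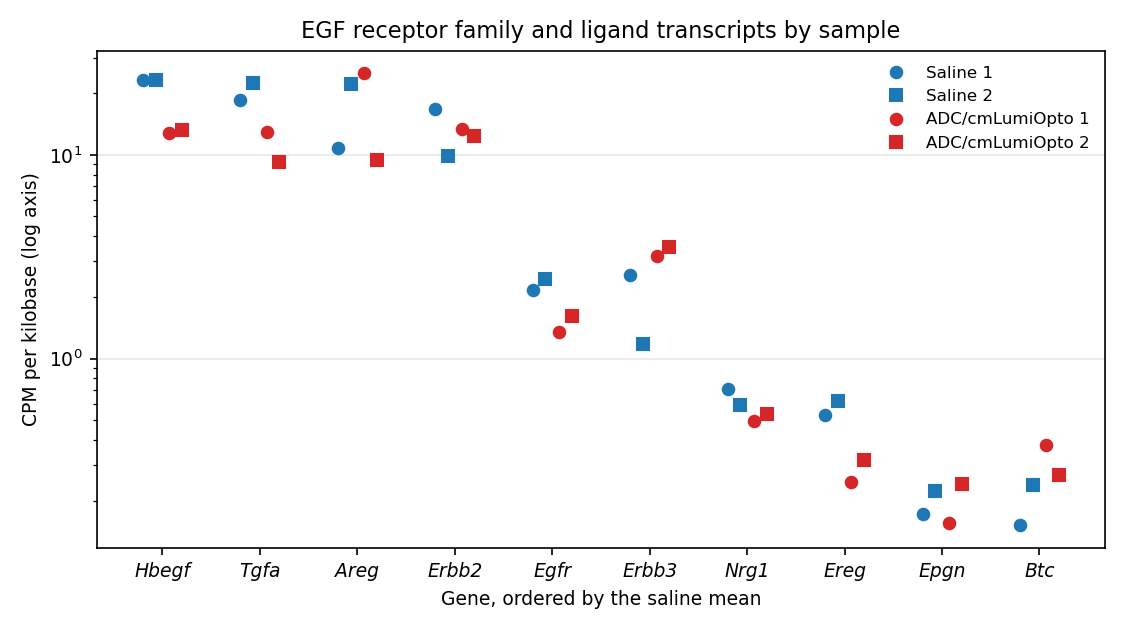
CPM per kilobase on a log axis for each of the 10 genes, with 1 point per sample (blue, saline; red, ADC/cmLumiOpto; circles, sample 1; squares, sample 2). Hbegf and Tgfa lie lower in both treated samples than in both saline samples, Erbb3 lies higher, and the Areg samples of both groups cover the same range.

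Among the receptors, Egfr was lower and Erbb3 higher in both treated samples than in both saline samples, while Erbb2 overlapped. None of the 3 differences reached an adjusted p under 0.05. Egfr (ENSMUSG00000020122, chromosome 11, 16702203 to 16868158, plus strand), the receptor for EGF, TGF-alpha and amphiregulin, had 24.5 and 27.8 CPM in the saline samples, against 15.3 and 18.3 CPM after treatment. Both treated samples were therefore below both saline samples, and the treated mean was 64.3% of the saline mean. The log2 fold change was -0.64 (SE 0.21, 95% interval -1.14 to -0.13), with an unadjusted p of 0.0216 and an adjusted p of 0.158 by edgeR's quasi-likelihood test. The antisense transcript Egfros, which overlaps the locus, held 23 and 26 counts in saline and 13 and 32 after treatment, against 270 to 412 counts for Egfr. The sources used here do not state whether reads were counted by strand.

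Erbb2 (ENSMUSG00000062312, chromosome 11, 98303296 to 98328542, plus strand), which encodes HER2, had 87.5 and 51.4 CPM in the saline samples and 69.9 and 64.6 CPM after treatment. The saline samples were the extremes and the treated ones lay between them. The log2 fold change was -0.05 (SE 0.26, 95% interval -0.68 to 0.59, adjusted p = 0.936 by edgeR's quasi-likelihood test), an interval that leaves room for a difference of either sign. Erbb2 transcript was present in every sample, at 762 to 1399 counts. The labels describe the line as triple-negative, a class that concerns the HER2 protein, which was not measured here. Lung cells were also present in every sample, so these counts cannot be assigned to the line. Mien1, which overlaps Erbb2 on the other strand, held 135 and 111 counts in saline and 345 and 229 after treatment.

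Erbb3 (ENSMUSG00000018166, chromosome 10, 128403392 to 128425521, minus strand), a receptor for neuregulins, had 15.4 and 7.08 CPM in the saline samples and 19.3 and 21.3 CPM after treatment. Both treated samples were above both saline samples, and the second saline sample was the lowest. The treated mean was 180.2% of the saline mean, with a log2 fold change of 0.85 (SE 0.38, 95% interval -0.06 to 1.75) and an adjusted p of 0.237 by edgeR's quasi-likelihood test. Without the second saline sample the log2 fold change was 0.40, and without the first it was 1.51.

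Of the ligands, Hbegf and Tgfa, the most abundant in saline, were each lower in both treated samples by about the same factor, and Areg differed more within groups than between them. Hbegf (ENSMUSG00000024486, chromosome 18, 36637980 to 36648858, minus strand), heparin-binding EGF-like growth factor, a ligand of both EGFR and ERBB4, had 112.6 and 112.0 CPM in the saline samples and 62.1 and 63.8 CPM after treatment. The samples within each group were nearly equal and the groups were far apart. The saline mean was 1.78-fold the treated mean, and the log2 fold change was -0.84 (SE 0.16, 95% interval -1.21 to -0.46). The unadjusted p was 0.00131 and the adjusted p 0.116 by edgeR's quasi-likelihood test, equal to the smallest of all genes. By edgeR's exact test the adjusted p was 0.00797, and by DESeq2 it was 0.00118.

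Tgfa (ENSMUSG00000029999, chromosome 6, 86172205 to 86252701, plus strand), transforming growth factor alpha, a ligand of EGFR, had 120.7 and 145.3 CPM in the saline samples and 84.4 and 59.6 CPM after treatment. Both treated samples were below both saline samples, with a wider spread within each group than for Hbegf. The saline mean of 133 ± 17.4 CPM was 1.85-fold the treated mean of 72.0 ± 17.5 CPM (SD, n = 2), and the log2 fold change was -0.89 (SE 0.22, 95% interval -1.42 to -0.35). The adjusted p was 0.123 by edgeR's quasi-likelihood test, 0.0263 by edgeR's exact test and 0.0130 by DESeq2.

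Areg (ENSMUSG00000029378, chromosome 5, 91287458 to 91296291, plus strand), amphiregulin, a ligand of EGFR made by epithelial and immune cells, had 13.1 and 27.2 CPM in the saline samples and 30.5 and 11.4 CPM after treatment. The highest and the lowest samples were both treated ones. Samples of 1 group differed 2.08-fold in saline and 2.67-fold after treatment, and the log2 fold change was 0.06 (SE 0.52, 95% interval -1.19 to 1.31, adjusted p = 0.961 by edgeR's quasi-likelihood test). With 209 to 538 counts behind each value, counting error is small beside that spread.

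Nrg1 (ENSMUSG00000062991, chromosome 8, 32304579 to 33374825, minus strand), neuregulin 1, the ligand of ERBB3 and ERBB4, had 11.0 and 9.17 CPM in saline and 7.65 and 8.29 CPM after treatment. Both treated samples were below both saline samples by a small step, and the log2 fold change was -0.34 (SE 0.28, 95% interval -1.01 to 0.33, adjusted p = 0.492 by edgeR's quasi-likelihood test). A second entry of the same name (ENSMUSG00000118541), 186 bases long and lying inside the first, had 0 counts in all 4 samples.

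The other 3 ligands were scarce. Ereg (ENSMUSG00000029377), epiregulin, had 2.19 and 2.56 CPM in saline and 1.02 and 1.32 CPM after treatment, from 18 to 38 counts. Its treated samples were both lower, with a log2 fold change of -1.01 (SE 0.47, 95% interval -2.15 to 0.12, adjusted p = 0.251 by edgeR's quasi-likelihood test). Btc (ENSMUSG00000082361), betacellulin, had 0.688 and 1.08 CPM in saline and 1.70 and 1.22 CPM after treatment, from 11 to 30 counts. Its treated samples were both higher, with a log2 fold change of 0.72 (SE 0.56, 95% interval -0.62 to 2.06, adjusted p = 0.468 by edgeR's quasi-likelihood test). Epgn (ENSMUSG00000035020), epigen, had 5 and 6 counts in saline and 5 and 9 after treatment, and did not pass the filter. Fitted without a filter its log2 fold change was 0.01, with a 95% interval from -2.18 to 2.21. That interval leaves room for a large difference of either sign.

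Epgn, Ereg, Areg and Btc are neighbors. They lie in that order within 376 kilobases of chromosome 5 (91175323 to 91550853 in the positions the table lists, mm39 per the submitters' processing notes), and they are the only 4 protein-coding genes among the 7 genes listed there. Their directions differed: the treated samples were both lower for Ereg and both higher for Btc, and overlapped the saline samples for Areg and Epgn. Their levels differed too, with Areg at 9.39 to 25.1 CPM per kilobase in the 4 samples and the other 3 below 1.

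**Figure D2:**
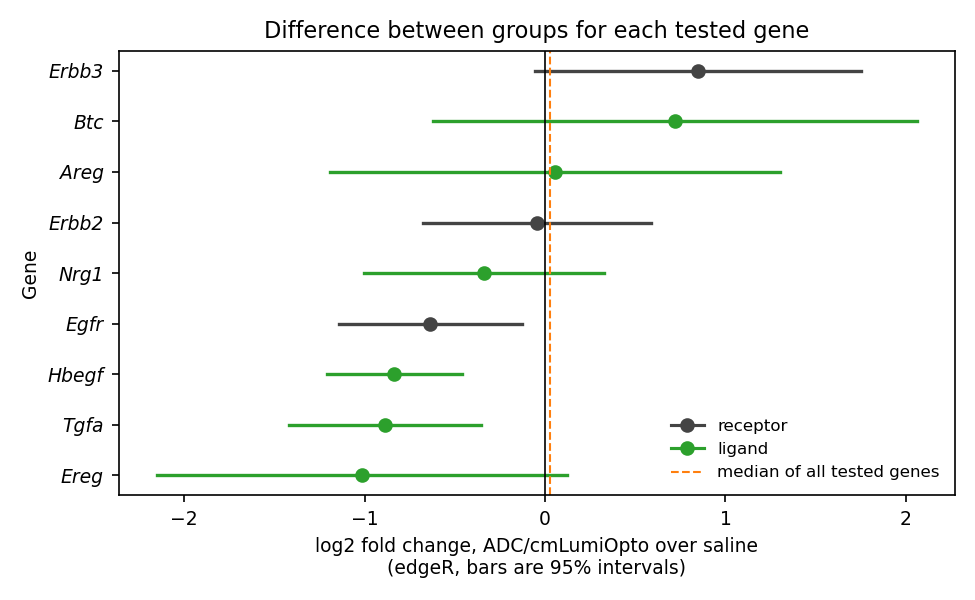
Log2 fold change (ADC/cmLumiOpto over saline) of the 9 tested genes with 95% intervals from edgeR, receptors in gray and ligands in green, and the median of all tested genes as a dashed line. The intervals of Hbegf, Tgfa and Egfr lie below 0, and those of the other 6 genes include it.

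Over the family, 9 of the 10 genes passed the filter on low counts. The unadjusted p was under 0.05 with a lower level for 3 of the 9 (Hbegf, Tgfa and Egfr), against 12.2% of all tested genes, and with a higher level for 0 of the 9, against 11%. The treated samples were both lower for 5 genes (Hbegf, Tgfa, Egfr, Ereg and Nrg1), where 28.8% of all tested genes did the same, and both higher for 2 (Erbb3 and Btc), where 28.1% did. The exact test and DESeq2 each called the same 2 of 9 lower, Hbegf and Tgfa, against 3.68% and 5.05% of all tested genes. The members were chosen with earlier results of these data known, so these counts are a description and not independent evidence of a direction. The median log2 fold change was -0.34 over the 9 genes, -0.59 over the 6 ligands and -0.05 over the 3 receptors, beside 0.03 over all tested genes. Log2 fold changes also varied with gene length in these libraries. With that trend removed, the log2 fold change of Egfr was -0.35 and that of Nrg1 -0.003, while Hbegf stood at -0.78, Tgfa at -0.74 and Erbb3 at 0.96. In that fit 2 of the 9 (Hbegf and Tgfa) were lower and 1 (Erbb3) was higher at an unadjusted p under 0.05, and none passed after adjustment. Of all 15320 tested genes, 1512 were lower and 1529 higher at that unadjusted threshold in the same fit.

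The RefSeq table of promoters (GRCm38.p6) held 6 of the 10 genes, Tgfa, Areg, Egfr, Erbb2, Epgn and Btc. The 250 bases before the start site of 4 of them are shown, Tgfa and Egfr because both had lower levels in both treated samples, and Areg and Epgn because they are neighbors of unequal level. They are written 5′ to 3′ on the gene's strand, which is the plus strand for all 4, at chr6:86194972-86195221, chr11:16751953-16752202, chr5:91139349-91139598 and chr5:91027267-91027516. Capitals mark matches to the letters searched, a cyclic AMP response element (TGACGTCA), an AP-1 site (TGACTCA) and a GC box (GGGCGG) on both strands, and a TATA box (TATAAA) on the gene's strand, with no overlap among the matches.
Tgfa: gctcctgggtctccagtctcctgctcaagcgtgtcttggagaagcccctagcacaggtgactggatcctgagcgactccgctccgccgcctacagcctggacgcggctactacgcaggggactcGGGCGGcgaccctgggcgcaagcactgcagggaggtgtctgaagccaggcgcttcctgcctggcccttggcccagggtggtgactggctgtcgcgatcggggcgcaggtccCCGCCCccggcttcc
Egfr: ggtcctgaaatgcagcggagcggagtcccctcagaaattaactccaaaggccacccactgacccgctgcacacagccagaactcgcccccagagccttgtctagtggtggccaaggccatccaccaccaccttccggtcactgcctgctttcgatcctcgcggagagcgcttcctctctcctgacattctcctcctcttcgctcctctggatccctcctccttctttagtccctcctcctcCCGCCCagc
Areg: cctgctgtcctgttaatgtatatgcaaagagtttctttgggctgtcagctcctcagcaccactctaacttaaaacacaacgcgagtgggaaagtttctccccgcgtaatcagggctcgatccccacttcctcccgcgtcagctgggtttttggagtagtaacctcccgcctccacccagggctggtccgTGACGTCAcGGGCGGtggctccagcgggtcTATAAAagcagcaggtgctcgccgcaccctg
Epgn: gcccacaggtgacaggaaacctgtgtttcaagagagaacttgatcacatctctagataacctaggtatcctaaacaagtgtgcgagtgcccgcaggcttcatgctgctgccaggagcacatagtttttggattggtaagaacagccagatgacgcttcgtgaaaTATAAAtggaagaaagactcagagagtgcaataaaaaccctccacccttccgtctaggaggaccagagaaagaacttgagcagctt

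Tgfa held GC boxes that begin 126 and 15 bases before the start site, the second on the other strand, and 69.2% of its window was G or C. Egfr held 1 GC box, 9 bases before the start on the other strand. GC boxes were found in 32.7% of all 32851 promoter windows of this length. Areg held the response element at 61 bases, a GC box at 52 bases and a TATA box at 31 bases before the start. The response element was found in 1.55% of all windows and the TATA box in 7.59%. Epgn, far lower in level than Areg, held a TATA box at 86 bases and none of the other letters. No window of the 6 held the AP-1 letters, which 4.46% of all windows did, and those of Erbb2 and Btc held none of the letters searched. A match describes the sequence and is not a measured binding site.

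Summed over the family, receptor transcript was about equal in the groups, and its makeup differed. The 3 receptors together came to 21.5 and 13.5 CPM per kilobase in saline and to 18.0 and 17.6 after treatment. Erbb2 was the main part, at 70.6% to 78.0% in the 4 samples. Egfr made up 10.1% and 18.2% of the sum in saline and 7.52% and 9.22% after treatment, and Erbb3 made up 11.9% and 8.72% in saline and 17.8% and 20.2% after treatment. Neither gene's shares overlapped between groups, and neither did its levels. Of all tested genes, 28.8% were lower and 28.1% higher in both treated samples. The ratio of Erbb3 to Egfr per kilobase was 1.19 and 0.480 in saline and 2.37 and 2.19 after treatment, so that both treated samples had more Erbb3 than Egfr transcript per kilobase and the saline samples lay on either side of equality. With 2 samples per group an exact permutation test cannot go below a two-sided p of 0.333, and no test was run on this ratio. Its separation follows from the lower Egfr and higher Erbb3 levels given above and is not a further result.

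The 7 ligands together came to 54.2 and 69.6 CPM per kilobase in saline and to 52.2 and 33.1 after treatment. Both treated sums were below both saline sums, but the first treated sample was close to the first saline one. The saline mean of 61.9 ± 10.9 CPM per kilobase was 1.45-fold the treated mean of 42.7 ± 13.5 (SD, n = 2). Areg set most of the difference between samples of 1 group: it made up 19.8% and 32.1% of the ligand sum in saline and 48.1% and 28.3% after treatment. Hbegf made up 43.0% and 33.3% in saline and 24.6% and 39.8% after treatment, and Tgfa 34.3% and 32.2% against 24.9% and 27.7%. Only for Tgfa, of these 3, did the shares of the groups not overlap.

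**Figure D3:**
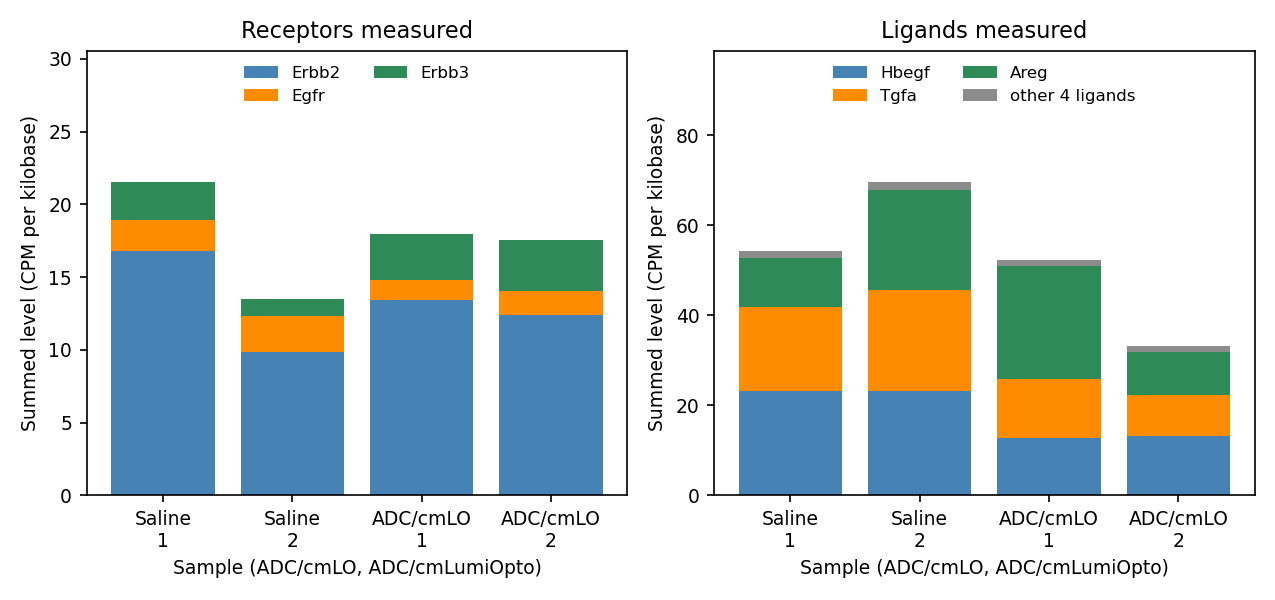
Summed CPM per kilobase of the 3 receptors (left) and the 7 ligands (right) in each sample, with 1 color per gene and the 4 scarcest ligands in gray. The receptor sum after treatment lies between the 2 saline sums with a larger Erbb3 part and a smaller Egfr part, and the ligand sum is smallest in the second treated sample.

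Markers of other cells differed between the groups, and for 7 of the lists, as for Erbb3, the second saline sample was the lowest and both treated samples were above both saline ones. These were the alveolar type 1, alveolar type 2, club, ciliated, leukocyte, neutrophil, and mast cell and basophil lists. Alveolar type 1 markers summed to 245 and 104 CPM in saline and to 651 and 625 CPM after treatment, with 4 of 5 genes higher in both treated samples. Alveolar type 2 markers summed to 1546 and 399 CPM against 5331 and 4504 CPM (4 of 5 higher, and Abca3 lower). Club cell markers summed to 1145 and 79.1 CPM against 6188 and 2944 CPM (3 of 3 higher). Ciliated cell markers summed to 10.8 and 5.53 CPM against 58.7 and 37.4 CPM (4 of 4 higher). Of all tested genes, 28.1% were higher and 28.8% lower in both treated samples. In these 4 lists the first treated sample was the highest, whereas for Erbb3, and for the leukocyte and neutrophil lists, it was the second. None of the defining markers of these 4 epithelial lists was at 0. Markers shared by tumor and lung epithelium summed to 2947 and 3310 CPM in saline and to 2917 and 2847 CPM after treatment, with 2 of 6 lower and 2 of 6 higher. The part of these cells in the Erbb3 result was not tested.

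The lower level of Hbegf, Tgfa and Egfr went with lower marker sums of other kinds. Fibroblast markers summed to 5071 and 3466 CPM in saline and to 1722 and 1397 CPM after treatment (5 of 6 lower), and markers of proliferating cells to 945 and 942 CPM against 535 and 508 CPM (4 of 4 lower). Basal epithelial markers summed to 61.3 and 54.0 CPM against 42.9 and 30.3 CPM, with 2 of 4 lower and Krt5 at 0 in 3 samples. The proliferating list and Hbegf shared a pattern of near-equal samples within each group. Macrophage markers were at 645 and 660 CPM in saline and 558 and 502 CPM after treatment (1 of 5 lower, 1 of 5 higher). Smooth muscle and pericyte markers were at 222 and 239 CPM against 156 and 139 CPM (2 of 4 lower, 2 of 4 higher). These counts stand beside 28.8% of all tested genes lower and 28.1% higher in both treated samples. The part of these cells in the ligand and Egfr results was not tested.

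None of the immune and vessel lists had the same order over the 4 samples as Areg, the ligand with the widest spread among the abundant ones. Neutrophil markers summed to 1010 and 407 CPM in saline and to 1042 and 7162 CPM after treatment, so the second treated sample, the lowest for Areg, was the highest for neutrophils. Leukocyte markers summed to 535 and 331 CPM against 631 and 848 CPM, and endothelial markers to 454 and 371 CPM against 437 and 647 CPM. T cell markers stood at 37.1 and 14.2 CPM in saline and 74.8 and 33.6 CPM after treatment. Mast cell and basophil markers were near 0 throughout, at 0.741 to 2.21 CPM in sum.

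**Figure D4:**
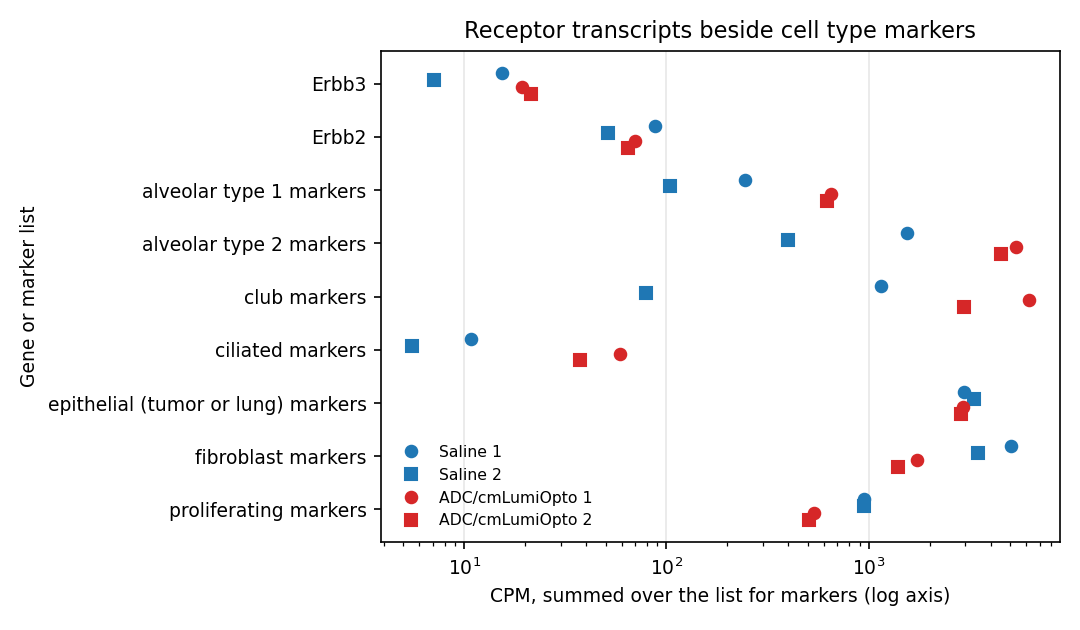
CPM on a log axis of Erbb3 and Erbb2 and of the summed markers of 7 lists, with 1 point per sample (blue, saline; red, ADC/cmLumiOpto; circles, sample 1; squares, sample 2). Erbb3 and the alveolar, club and ciliated lists have the second saline sample lowest and both treated samples above both saline ones, and in the fibroblast and proliferating lists both treated samples lie below both saline ones.

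Beyond the family, 84 genes that release its ligands, carry its signal or respond to it were examined in 6 lists, and all 84 passed the filter. The unadjusted p was under 0.05 with a lower level for 24 of them, against 12.2% of all tested genes, and with a higher level for 2 (Hras and, named after its value was seen, Nck1), against 11%. The treated samples were both lower for 51 of the 84, against 28.8%, and both higher for 6, against 28.1%. The median log2 fold change was -0.30. With the length trend removed, 21 were lower and 5 higher (Hras, Nck1, Araf, Pik3cd and Pik3r3) at an unadjusted p under 0.05. Of all 15320 tested genes, 1512 were lower and 1529 higher in that fit. The median of the 84 was then -0.23, beside 0.02 over all tested genes. None of the 84 had an adjusted p under 0.05 by edgeR's quasi-likelihood test. The exact test called 9 lower and 0 higher, against 3.68% of all tested genes lower and 606 of 15320 higher. DESeq2 called 11 lower and 0 higher, against 5.05% lower and 579 of 15320 higher. Genes are named in each list by the smallest p. The lists were written with earlier results of these data known, so their counts are a description and not independent evidence of a direction.

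Transcripts that the pathway is known to induce had a negative log2 fold change for 14 of 14 genes, against 7359 of all 15320 tested genes. Their median log2 fold change was -0.55. The unadjusted p was under 0.05 for 5, all lower, against 12.2% of all tested genes. These were the 3 named here and, chosen after their values were seen, Etv5 and Klf10. The treated samples were both lower for 8 of the 14 and both higher for 0, against 28.8% and 28.1%. Fosl1, an AP-1 subunit, had 14.5 and 19.7 CPM in saline and 6.12 and 6.53 CPM after treatment, a log2 fold change of -1.43 (SE 0.28). Its adjusted p was 0.116 by edgeR's quasi-likelihood test, 0.00384 by edgeR's exact test and 0.00195 by DESeq2. Ccnd1, the cell cycle regulator cyclin D1, had 1372 and 1649 CPM in saline and 903 and 850 CPM after treatment (log2 fold change -0.79). Etv4, an ETS transcription factor, had 111 and 133 CPM in saline and 71.7 and 87.1 CPM after treatment (log2 fold change -0.62). The groups did not overlap for any of the 3. Markers of proliferating cells, given above, were lower as well, and the part of those cells in this result was not tested. Whether these levels reflect signaling by the EGF family or other signals was not tested either.

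Negative feedback and receptor turnover genes, which the pathway also induces in part, had a median log2 fold change of -0.40. Of 20 genes, 9 were lower and 0 higher at an unadjusted p under 0.05, against 12.2% and 11% of all tested genes. In both treated samples 14 were lower and 0 higher, against 28.8% and 28.1%. Dusp4, a phosphatase that turns off MAP kinases, had 102 and 121 CPM in saline and 50.3 and 58.2 CPM after treatment (log2 fold change -1.04, SE 0.18, adjusted p = 0.116 by edgeR's quasi-likelihood test). Spred2, an inhibitor of RAS signaling, had 122 and 125 CPM in saline and 62.3 and 68.8 CPM after treatment (log2 fold change -0.91). Dusp5, a nuclear phosphatase of ERK, had 29.6 and 34.0 CPM in saline and 16.5 and 16.3 CPM after treatment (log2 fold change -0.95). All 3, named for the smallest p in the same counts, were called lower by the exact test and by DESeq2. Their adjusted p values by edgeR's exact test were 0.00164, 0.00385 and 0.0102 in that order. Of the 20 genes each of these tests called 4 lower and 0 higher. Of all tested genes, the exact test called 3.68% lower and DESeq2 5.05%.

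Adaptors and proximal signaling genes had a median log2 fold change of -0.32. At an unadjusted p under 0.05, 6 of 16 were lower and 1 higher, against 12.2% and 11% of all tested genes. In both treated samples 13 were lower and 2 higher, against 28.8% and 28.1%. Src, a tyrosine kinase that acts with EGFR, had 126 and 144 CPM in saline and 71.5 and 89.6 CPM after treatment (log2 fold change -0.75). Sos1, which loads RAS with GTP, had 62.8 and 51.2 CPM against 33.5 and 36.2 CPM (log2 fold change -0.71). Eps8, an EGFR substrate that acts on actin, had 243 and 324 CPM against 181 and 160 CPM (log2 fold change -0.73). With the length trend removed, 2 of the 16 (Src and Sos1) were lower and 1 (Nck1) was higher at an unadjusted p under 0.05. That fit had 1512 of all 15320 tested genes lower and 1529 higher at that threshold.

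The medians of the core kinase lists lay closer to that of all genes. Of 11 RAS and MAP kinase genes, 0 were lower and 1 was higher at an unadjusted p under 0.05, against 12.2% and 11% of all tested genes. The median log2 fold change was -0.14. The treated samples were both lower for 6 of these 11 and both higher for 2, against 28.8% and 28.1% of all tested genes. Hras was the higher one, with 55.3 and 42.3 CPM in saline and 77.2 and 65.2 CPM after treatment (log2 fold change 0.54, adjusted p = 0.177 by edgeR's quasi-likelihood test). Nras had 230.1 and 259.8 CPM against 186 and 196 CPM. Of 11 PI3 kinase and AKT genes, 2 were lower and 0 higher at an unadjusted p under 0.05, with a median of -0.24. The treated samples were both lower for 7 of these 11 and both higher for 2. Pdpk1, which activates AKT, had 98.8 and 104.8 CPM in saline and 61.0 and 68.6 CPM after treatment (log2 fold change -0.65). The PI3 kinase regulatory subunits differed in direction, with Pik3r2 at 133 and 160 CPM against 85.2 and 111 CPM (log2 fold change -0.57) and Pik3r3 at 3.31 and 2.56 CPM against 4.31 and 7.46 CPM (log2 fold change 1.00, unadjusted p above 0.05).

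The genes that release the ligands had a median log2 fold change of -0.03, with 2 of 12 lower and 0 higher at an unadjusted p under 0.05. Of all tested genes, 12.2% were lower and 11% higher at that threshold. Adam12, a metalloprotease known to cut HB-EGF, had 26.2 and 34.2 CPM in saline and 7.65 and 12.8 CPM after treatment (log2 fold change -1.56, SE 0.31), the lowest log2 fold change in any of the 6 lists. Its adjusted p was 0.116 by edgeR's quasi-likelihood test and 0.00156 by edgeR's exact test. Timp3, an inhibitor of such proteases, had 183 and 122 CPM in saline and 95.2 and 101.7 CPM after treatment (log2 fold change -0.63). Adam10, which cuts EGF and betacellulin, had 345 and 392 CPM in saline and 311 and 274 CPM after treatment (log2 fold change -0.33, unadjusted p above 0.05). Both Adam12 and Timp3 are also made by fibroblasts, whose marker sums are given above, and the part of those cells was not tested.

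**Figure D5:**
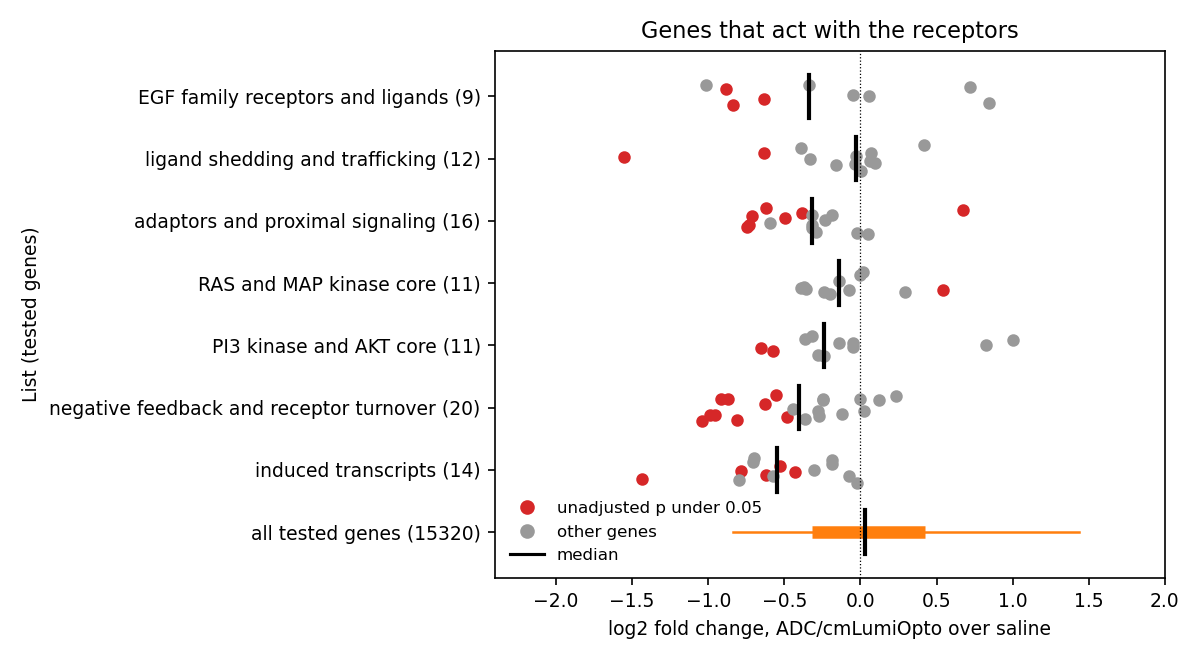
Log2 fold change (ADC/cmLumiOpto over saline) of each tested gene of the family and of the 6 lists, with 1 point per gene, red where the unadjusted p was under 0.05, black lines at the medians, and in orange the quartiles (thick) and the 5th to 95th percentiles (thin) of all tested genes. The medians of the induced transcripts (-0.55) and of the negative feedback list (-0.40) lie farthest to the left, and that of the shedding list (-0.03) lies next to that of all genes.

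The remaining genes of the family were scarce, and all but Nrg2 were at or near the limit of detection. Nrg2 had 30 and 16 counts in saline and 18 and 30 after treatment (log2 fold change -0.25, adjusted p = 0.817 by edgeR's quasi-likelihood test), and was the only one of these 5 to pass the filter. Egf, the founding ligand, had 3 and 6 counts in saline and 2 and 13 after treatment, and Nrg4 had 5 and 10 against 9 and 11. Erbb4, the remaining receptor, had 0 counts in 3 samples and 2 in the second treated sample, and Nrg3 had 0 in all 4. A count of 0 allows up to 3 counts, which is 0.146 to 0.202 CPM in these libraries, for counting error only. Transcripts of the receptor family were thus those of Egfr, Erbb2 and Erbb3 at this depth.

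By the distance between centered log2 CPM profiles over the 4 samples, the genes most like Egfr were Zfp281 (0.00466), Trappc10 (0.0135) and Osbpl10 (0.0328). Those most like Erbb2 were Tmem97 (0.0697), Hs1bp3 (0.0706) and Adamts8 (0.0809), and those most like Erbb3 were Cbfa2t3 (0.0721), Adap1 (0.0732) and Sh3tc2 (0.106). With 4 samples and 15320 genes some profiles lie close to any gene, and these names describe likeness in level only.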

How the data were processed

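RNA from lungs with 4T1 metastases was sequenced in 2 saline and 2 ADC/cmLumiOpto samples, grouped by the labels. The deposited values are unnormalized whole-number read counts for each gene. Per the methods, reads were aligned with HISAT2, and the counting program and strand setting are not given in the sources used here. The submitters' processing notes name mm39 and the methods GRCm38, and the listed positions differed from a GRCm38 annotation, so they are given as listed. Counts were fitted in R 4.3.3 with edgeR 4.0.16: filterByExpr (minimum count 10, total 15), TMM, quasi-likelihood test over all 15320 genes, Benjamini-Hochberg adjustment, threshold 0.05. Alternatives were edgeR's exact test, DESeq2 1.42.0, other filters and scalings, removal of the length trend and each sample left out. CPM are per 1000000 counts in tested genes, scaled by TMM, and 3 counts equal 0.146 to 0.202 CPM, for counting error only. Scripts were tested on simulated data. All members and lists were chosen with earlier results of these data known. All members are named, as are the 3 genes of each list with the smallest p, apart from 1 that is not reported here, and the 3 nearest to each receptor. Promoter sequences are RefSeq's (GRCm38.p6).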

Additional observations from a re-analysis of the deposited data

How the results depend on the processing

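The quasi-likelihood test of edgeR called no gene after adjustment, and 3553 genes had an unadjusted p under 0.05. This count depends on the test: DESeq2 called 1353 genes, the exact test 1170, the quasi-likelihood test without a filter 2259, and with a replicate block 607. Leaving out 1 sample gave 0 to 218 genes (218 without Saline 1, 10 without Saline 2, 5 without ADC/cmLumiOpto 1), each with the lone sample assumed to vary like the other group. Of the family, DESeq2 and the exact test called 2 genes (Hbegf and Tgfa), the fit without a filter 3 (with Erbb3), the replicate block 1 (Hbegf), and the fits without 1 sample 0. Sample numbers are only numbers: deviations of same-numbered samples correlated at 0.0985 across genes. Of 108 log2 fold changes of the family under the alternatives, 100 kept their direction, and 7 of 9 genes kept it in all. Erbb2 turned to 0.035 with the length trend removed and to 0.0030 with the replicate block, and ranged from -0.38 to 0.38 without 1 sample. Areg turned to -0.29 with the length trend removed and to -0.013 with the replicate block, and ranged from -0.81 to 0.68 without 1 sample. Nrg2 ranged from -0.59 to 0.19 without 1 sample. Hbegf stayed between -0.86 and -0.78 and Tgfa between -1.16 and -0.66 in all. Depth limited Btc, Epgn and the genes under the filter.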
